A study of Mus musculus with 6 samples.

Results

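A set of 10 genes that move copper or bind metal was followed in mouse cerebellum: the importers Slc31a1 and Slc31a2, the exporters Atp7a and Atp7b, the chaperones Atox1 and Ccs, the copper ferroxidase Cp, and the metallothioneins Mt1, Mt2 and Mt3. They are 10 of 46983 genes in the count tables, listed by name, and all 10 were among the 16851 genes that passed the filter on low counts. The members were chosen by name with measured values in view, namely the WT and Slc7a5-KO levels of these genes and above all the low Slc31a1 levels, so their differences between the groups are a description and not a test. Adjusted p-values of members are printed to say how each fit listed the gene.

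RNA came from the cerebellum of 6 C57BL/6J mice at postnatal day 60, with 1 library per animal. All 6 mice carried Tie2-Cre, a recombinase driven by a promoter of endothelial and blood cells. The 3 animals labelled WT were Slc7a5 fl/+, so the controls also carried the recombinase and a floxed allele, and the 3 labelled Slc7a5-KO were Slc7a5 fl/fl. Slc7a5 encodes LAT1, the transporter that takes large neutral amino acids across the blood-brain barrier, and the title of the series concerns impaired amino acid transport at that barrier. Cells outside the Tie2 lineage keep the gene, and whole cerebellum holds many of them.

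Copper is needed by enzymes of respiration, antioxidant defence and peptide and transmitter synthesis, and free copper ions are toxic, so cells pass copper from protein to protein. CTR1, the product of Slc31a1, brings copper in through the plasma membrane. ATOX1 hands it to the pumps ATP7A and ATP7B, which load secreted enzymes and export the surplus, and CCS hands it to superoxide dismutase 1. Metallothioneins are small cysteine-rich proteins that bind zinc and copper. In brain, Mt1 and Mt2 are expressed mainly by astrocytes and are induced by metals, glucocorticoids and stress, and Mt3 is the brain-enriched form.

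The promoters of Mt1 and Mt2 are shown because both genes are textbook targets of the metal sensor MTF1, which binds metal response elements, and that of Slc31a1 because this gene leads the list. RefSeq promoter windows (GRCm38.p6, 250 bases before to 50 after the annotated start) were found for 9 of the 10 genes. Capitals mark matches to the core of the metal response element, searched as TGCACNC and TGCGCNC on both strands. Lines named upstream run from base -250 to base -11 before the start, and lines named downstream hold the first 30 bases from the start.
Mt1 upstream, chr8:94178839-94179078, plus strand: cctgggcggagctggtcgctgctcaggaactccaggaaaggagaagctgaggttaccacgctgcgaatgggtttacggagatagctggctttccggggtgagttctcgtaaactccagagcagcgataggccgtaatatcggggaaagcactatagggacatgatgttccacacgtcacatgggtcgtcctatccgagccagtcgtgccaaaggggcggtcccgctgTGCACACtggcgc
Mt1 downstream, chr8:94179089-94179118, plus strand: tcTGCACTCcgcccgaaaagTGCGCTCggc
Mt2 upstream, chr8:94172368-94172607, plus strand: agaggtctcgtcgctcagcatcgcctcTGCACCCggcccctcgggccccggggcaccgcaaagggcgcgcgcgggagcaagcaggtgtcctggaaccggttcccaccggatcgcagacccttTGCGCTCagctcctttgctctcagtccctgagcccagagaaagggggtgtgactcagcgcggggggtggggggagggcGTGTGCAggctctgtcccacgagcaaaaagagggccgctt
Mt2 downstream, chr8:94172618-94172647, plus strand: ggtcGTGCGCAggcccaggggcgtgtgctg
Slc31a1 upstream, chr4:62360451-62360690, plus strand: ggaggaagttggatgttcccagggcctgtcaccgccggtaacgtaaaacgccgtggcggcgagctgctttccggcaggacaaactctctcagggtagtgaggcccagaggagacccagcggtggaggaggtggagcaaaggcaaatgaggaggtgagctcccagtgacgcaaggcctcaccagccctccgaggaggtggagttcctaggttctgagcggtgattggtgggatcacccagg

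The Mt2 window held 4 matches to the metal response element core and the Mt1 window held 3. At least 4 matches were found in 0.517% and at least 3 in 1.97% of all 32851 RefSeq promoter windows of the same length. Atp7a had 2 matches, Slc31a2, Atp7b and Mt3 had 1 each, and 25.7% of all windows held at least 1. Slc31a1, Atox1 and both annotated starts of Cp had none of these letters within the window. A core of the antioxidant response element, searched as TGACNNNGC on both strands, was found once each in Mt2 (bases -79 to -71), Atox1 (-74 to -66) and Slc31a2 (-164 to -156), against 12.4% of all windows. A match is a run of letters and not a measured binding site. Some matches in Mt1 and Mt2, and the match in Mt3, lay after the annotated RefSeq start. Gene coordinates given further on are from GENCODE, whose starts can differ. The GENCODE start of Mt2, 94172664, lies after all 4 of its matches. The counts and positions hold for these windows alone, and sites near any other start were not searched.

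**Figure D1:**
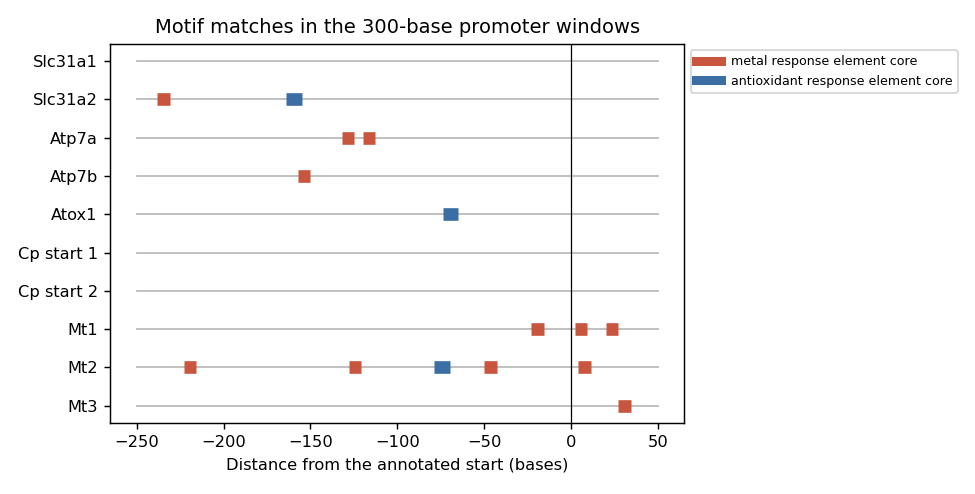
Positions of the motif matches in the RefSeq promoter windows of the 9 genes found there, in bases from the annotated start (vertical line at 0). Red blocks are metal response element cores and blue blocks antioxidant response element cores. Mt2 and Mt1 carry 4 and 3 red blocks, and the lines of Slc31a1 and Cp are empty.

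Depth was 13438182 to 34160856 gene reads per library, with Slc7a5-KO replicate 3 the shallowest. Levels are in CPM, reads per mega reads of gene-assigned library after TMM scaling. Slc7a5 itself had 72.0, 66.3 and 43.2 CPM in WT replicates 1 to 3 and 164, 59.4 and 118 CPM in Slc7a5-KO replicates 1 to 3. The targeted gene was thus on average higher, not lower, under the Slc7a5-KO label, though the groups overlapped (edgeR adjusted p = 0.84). Every direction below follows labels that the level of Slc7a5 in whole cerebellum did not bear out. Sex, read from Xist and the Y chromosome, was mixed in both groups (1 female of 3 in WT, 2 of 3 in Slc7a5-KO). Purkinje cell and granule neuron markers, which define cerebellar cortex, were present in every library, with Itpr1 and Cbln3 the highest. The 8 Purkinje markers summed to 5504 to 6740 CPM in WT and to 5714, 3851 and 4987 CPM in Slc7a5-KO replicates 1 to 3, and all 8 had log2 differences below 0 (median -0.41). The 9 granule markers summed to 4369 to 6400.2 CPM in WT and to 6070, 3889 and 3840 CPM in Slc7a5-KO replicates 1 to 3, with 7 of 9 below 0 (median -0.21). No gene of either list passed the edgeR test. Rgs8 and Pvalb, chosen after their values were seen, were lower in every library labelled Slc7a5-KO than in any WT library. Of all genes tested, 5.54% were so, and the other markers of these lists overlapped between the groups. Markers of the choroid plexus, the epithelium that makes cerebrospinal fluid, differed between animals. The 16 markers summed to 3789 to 8056 CPM in WT and to 3551, 294 and 6454 CPM in Slc7a5-KO replicates 1 to 3. Ttr, the highest of them, had 4847, 5317 and 2352 CPM in WT animals and 2158, 15.5 and 4501 CPM in animals labelled Slc7a5-KO. All 16 were on average lower there, and Kcne2 had 0 reads in Slc7a5-KO replicate 2, which allows up to 0.112 CPM. In whole tissue, fewer cells of a type and less RNA per cell cannot be told apart.

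Per length, the list spanned a wide range of levels in cerebellum, with 2 metallothioneins at the top and the copper pumps near the bottom. Mt2 had 282 ± 78.4 and Mt3 had 159 ± 25.8 CPM per kb of exon (mean ± SD over all 6 animals). Atox1 followed at 54.7 ± 15.9 and Mt1 at 43.0 ± 7.89 CPM per kb, and the ranges of these 2 genes overlapped. Slc31a1, at 13.6 ± 4.41 CPM per kb, lay apart from both its neighbours. Cp (3.203 ± 0.621), Slc31a2 (2.72 ± 0.641), Atp7a (1.66 ± 0.259), Ccs (1.596 ± 0.791) and Atp7b (0.965 ± 0.209 CPM per kb) formed a low stretch in which each overlapped the next. The importer Slc31a1 was 2.73 to 7.36 times its paralog Slc31a2 per length, and Atp7a was 1.12 to 2.31 times Atp7b. The lengths join all annotated exons of a gene, so a gene with a long rare transcript has too low a value. The joined exons of Mt1 cover 1246 bases, its whole gene span, against 588 bases for Mt2. The level of Mt1 per length, and its place below Atox1, may therefore be too low. In WT, Mt2 averaged 2.94 times Mt1 by reads and 6.23 times Mt1 per length.

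**Figure D2:**
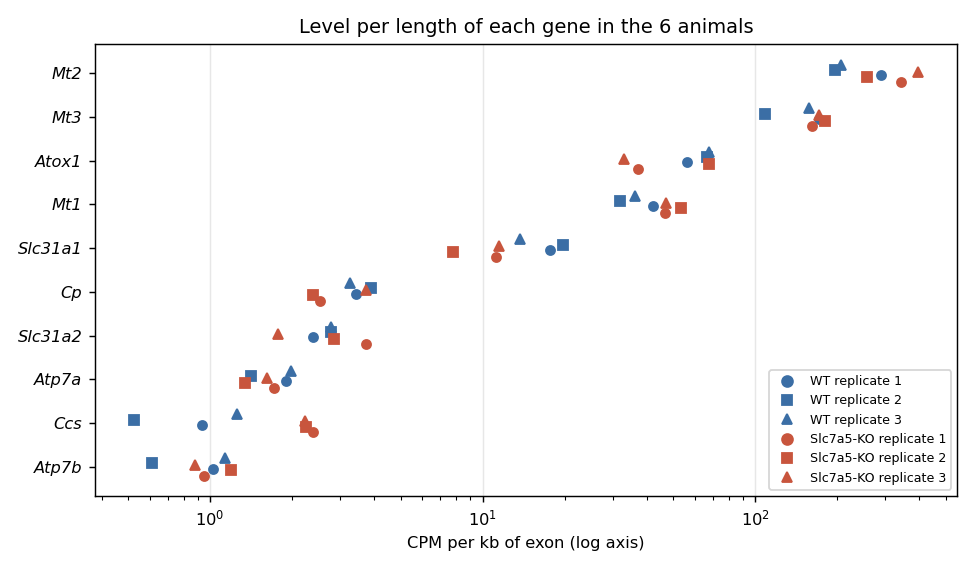
Level of each gene per kb of exon in CPM, on a log axis, with 1 point per animal (blue WT, red Slc7a5-KO, shape by replicate). Mt2 and Mt3 lie apart at the top, and the 5 genes from Cp down to Atp7b form a low run of overlapping levels. The exon length of Mt1 covers its whole gene span, so its points may lie too low.

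Slc31a1 had lower levels in all 3 libraries labelled Slc7a5-KO than in any WT library. It had 75.3, 84.4 and 58.5 CPM in WT replicates 1 to 3 and 48.0, 33.3 and 49.3 CPM in Slc7a5-KO replicates 1 to 3. The groups did not overlap, and the lowest level was in Slc7a5-KO replicate 2. Means were 72.7 ± 13.1 and 43.5 ± 8.92 CPM (SD, n = 3 each), a log2 difference of -0.74 ± 0.18 (standard error, edgeR). The gene (ENSMUSG00000066150.12, GRCm38 chromosome 4, 62360727 to 62391769, plus strand, protein-coding) overlaps Cdc26 on the other strand without sharing exon bases. Reads on the strand opposite to Slc31a1 were 0 to 36 per library, against 671 to 2665 on its own.

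Whether Slc31a1 passed a false discovery rate of 0.05 depended on the fit. It was not among the 8 genes called by edgeR, 0.0475% of the 16851 tested (edgeR adjusted p = 0.23). It was called in the authors' deposited table (unshrunken log2 fold change -0.75, adjusted p = 0.0057), where 0.90% of genes with an adjusted p were called. DESeq2 called it with an adjusted p of 0.043 (0.339% of genes called), edgeR without the filter on low counts with 0.0028 (0.289% called), and edgeR with a term for sex with 0.035 (0.0949% called). Over all alternatives its edgeR, DESeq2 or limma adjusted p ran from 0.0028 to 0.63. The difference was -0.58 without Slc7a5-KO replicate 2, the library with few choroid plexus reads, and -0.88 without WT replicate 3. From the highest library down, Slc31a1 ran WT 2, WT 1, WT 3, Slc7a5-KO 3, Slc7a5-KO 1, Slc7a5-KO 2. The choroid plexus sum, in the same order of libraries, was 8056, 7616, 3789, 6454, 3551 and 294 CPM. The Purkinje sum, too, was lowest in Slc7a5-KO replicate 2, and the part of either cell type in the Slc31a1 values was not tested.

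Slc31a2, whose product CTR2 resembles CTR1, had overlapping levels. It had 4.86, 5.67 and 5.65 CPM in WT animals and 7.58, 5.79 and 3.60 CPM in animals labelled Slc7a5-KO. The Slc7a5-KO libraries reached above and below the WT range, and the log2 difference was 0.082 ± 0.35. It changed sign, to -0.19, without Slc7a5-KO replicate 1. In 5 libraries 12.8% to 18.8% of its reads lay on the opposite strand, 23 to 40 reads. Slc7a5-KO replicate 3 had 0 such reads beside 49 on the gene's own strand, which allows a share of up to 6.12% by counting error.

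The copper pumps overlapped between the groups. Atp7a, the Menkes disease pump, had 16.6, 12.3 and 17.3 CPM in WT animals and 15.0, 11.7 and 14.1 CPM in animals labelled Slc7a5-KO (log2 difference -0.18 ± 0.23). Atp7b, the Wilson disease pump, had 6.64, 3.97 and 7.39 CPM in WT animals and 6.16, 7.77 and 5.73 CPM in animals labelled Slc7a5-KO (0.13 ± 0.33). WT replicate 2 was the lowest library for Atp7b and without it the difference was -0.090. Neither pump had a difference larger than its standard error.

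The chaperones went opposite ways. Ccs, which loads superoxide dismutase 1, had 1.67, 0.938 and 2.24 CPM in WT animals and 4.24, 4.00 and 3.97 CPM in animals labelled Slc7a5-KO. The groups did not overlap, and the Slc7a5-KO mean was 4.07 ± 0.149 CPM (SD, n = 3) while the WT mean was 1.62 ± 0.655. The log2 difference of 1.33 ± 0.49 was the largest of the list, and it rests on 26 to 137 reads per library. With 54 to 137 Ccs reads in the Slc7a5-KO libraries, their SD is below counting error and does not measure the spread of animals. Its edgeR adjusted p was 0.67, and the value ran from 1.06 without WT replicate 2 to 1.63 without WT replicate 3. Sod1, the enzyme CCS serves and picked once its values were known, had 141 ± 23.1 CPM in WT and 141 ± 11.1 CPM in Slc7a5-KO (log2 difference -0.0063).

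Atox1, which feeds the pumps, split the libraries labelled Slc7a5-KO. It had 30.5, 36.1 and 36.5 CPM in WT animals and 20.03, 36.6 and 17.9 CPM in animals labelled Slc7a5-KO. Slc7a5-KO replicate 2 was the highest of all 6 libraries and the other two were the lowest. The log2 difference was -0.46 ± 0.23 with all libraries and -0.86 without Slc7a5-KO replicate 2 (edgeR adjusted p = 0.23). The ratio of Atox1 to Ccs per length, which does not depend on library scaling, was 60.2, 127 and 53.6 in WT and 15.6, 30.1 and 14.8 in the libraries labelled Slc7a5-KO. The ratio separated the groups, as Ccs alone did.

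Cp encodes ceruloplasmin, a copper-loaded ferroxidase that lets iron leave cells, made in brain by astrocytes and choroid plexus among others. It had 32.9, 37.2 and 31.2 CPM in WT animals and 24.2, 22.8 and 35.6 CPM in animals labelled Slc7a5-KO. Slc7a5-KO replicate 3 lay within the WT range and the other two below it, and the log2 difference was -0.30 ± 0.19. Leaving out Slc7a5-KO replicate 3 gave -0.52 and leaving out Slc7a5-KO replicate 2 gave -0.19. The order of the libraries was WT 2, Slc7a5-KO 3, WT 1, WT 3, Slc7a5-KO 1, Slc7a5-KO 2, the order of the choroid plexus sum apart from a swap of WT 1 and Slc7a5-KO 3. The part of choroid plexus RNA in these values was not tested. Cp shares 108 exon bases with Hps3 on the other strand, and with counts from both strands together its difference was -0.40.

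The metallothioneins had higher means in the libraries labelled Slc7a5-KO. Mt1 had 52.6, 39.8 and 45.3 CPM in WT animals and 58.3, 66.7 and 58.9 CPM in animals labelled Slc7a5-KO (log2 difference 0.42 ± 0.15). The groups did not overlap for Mt1. Mt2 had 170.1, 116 and 121 CPM in WT animals and 202, 151 and 233 CPM in animals labelled Slc7a5-KO (0.53 ± 0.17), and here WT replicate 1 lay above Slc7a5-KO replicate 2. Mt3 had 183, 116 and 168 CPM in WT animals and 173, 193 and 182 CPM in animals labelled Slc7a5-KO (0.23 ± 0.15). WT replicate 2 was the lowest library for all 3 genes, and without it the Mt3 difference was 0.062, that of Mt1 0.33 and that of Mt2 0.43.

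Together Mt1, Mt2 and Mt3 took 405, 271 and 334 CPM in WT animals and 433, 411 and 474 CPM in animals labelled Slc7a5-KO, without overlap. Mt1 and Mt2, neighbours on chromosome 8 (94179082 to 94180327 and 94172664 to 94173568, GRCm38, plus strand), did not keep a fixed ratio. Mt2 had 3.23, 2.91 and 2.67 reads per Mt1 read in WT and 3.47, 2.27 and 3.96 in the libraries labelled Slc7a5-KO. Slc7a5-KO replicate 2 had the most Mt1 and the least Mt2 of its group. No window of 50 bases in the annotated transcripts of Mt1, Mt2, Mt3 or the other 7 genes was shared with a transcript of another annotated gene, so reads of that length could be told apart between these genes. Unannotated copies in the genome were not searched.

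Astrocyte and Bergmann glia markers, by contrast, had lower sums under the Slc7a5-KO label. The 14 markers summed to 5895 to 6018 CPM in WT and to 5284 to 5410 CPM in Slc7a5-KO, without overlap, and 10 of the 14 were lower on average. The highest of them, Slc1a2, a glutamate transporter of astrocytes, overlapped between the groups (log2 difference -0.067 ± 0.15). Gfap, an astrocyte filament gene chosen after its values were seen, had 196, 145 and 134 CPM in WT animals and 226, 253 and 215 CPM in animals labelled Slc7a5-KO (edgeR adjusted p = 0.31). It was 1 of the 4 markers that were higher on average. S100b and Fabp7, chosen likewise, were lower under the Slc7a5-KO label without overlap. Of all genes tested, 5.54% were lower without overlap and 5.93% higher without overlap, as Gfap was. The other astrocyte markers overlapped between the groups. S100b stood at 597 ± 32.9 CPM in WT and 459 ± 60.5 CPM in Slc7a5-KO (edgeR adjusted p = 0.64). Fabp7 stood at 6.52 ± 0.679 and 4.17 ± 0.881 CPM (edgeR adjusted p = 0.83). Microglia markers summed to 212 to 262 CPM in WT and to 292 to 311 CPM in Slc7a5-KO, with 7 of 8 higher on average. None of the markers in either list was at 0 in any library or passed the test. Their part in the metallothionein values was not tested.

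**Figure D3:**
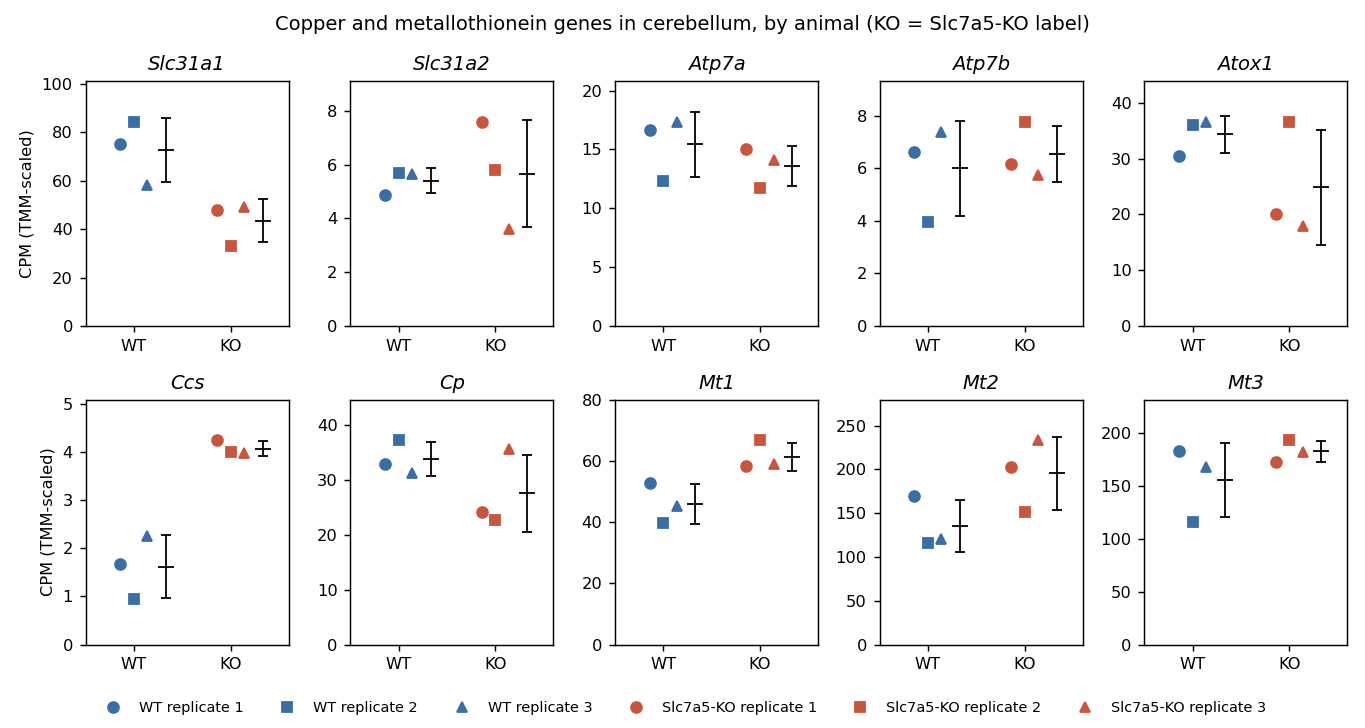
CPM of the 10 genes in each animal, 1 panel per gene with its own axis from 0; shapes are replicates, and the black bar is the group mean with its SD (n = 3). Slc31a1, Ccs and Mt1 separate the groups, and Atox1 shows Slc7a5-KO replicate 2 level with WT.

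In all, 3 of the 10 genes separated the groups, Slc31a1 downward and Ccs and Mt1 upward, where 11.5% of all genes tested did so in either direction, 5.54% downward and 5.93% upward. By edgeR 4 of the 10 (Slc31a1, Ccs, Mt1 and Mt2) had an unadjusted p under 0.05, where 6.22% of all genes did. These counts come from the comparison that was known when the list was made, so nothing is read from them. Of the 10 differences 6 were above 0, as were 50.3% of all, and 4 were below 0, as were 49.7% of all, and their median was 0.11 against 0.0022 over all genes. Apart from Slc31a1, no member passed a false discovery rate of 0.05 under any alternative, and the smallest adjusted p among them was 0.054, for Mt2 in edgeR without the filter on low counts. All 10 had the same sign in the authors' deposited table.

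**Figure D4:**
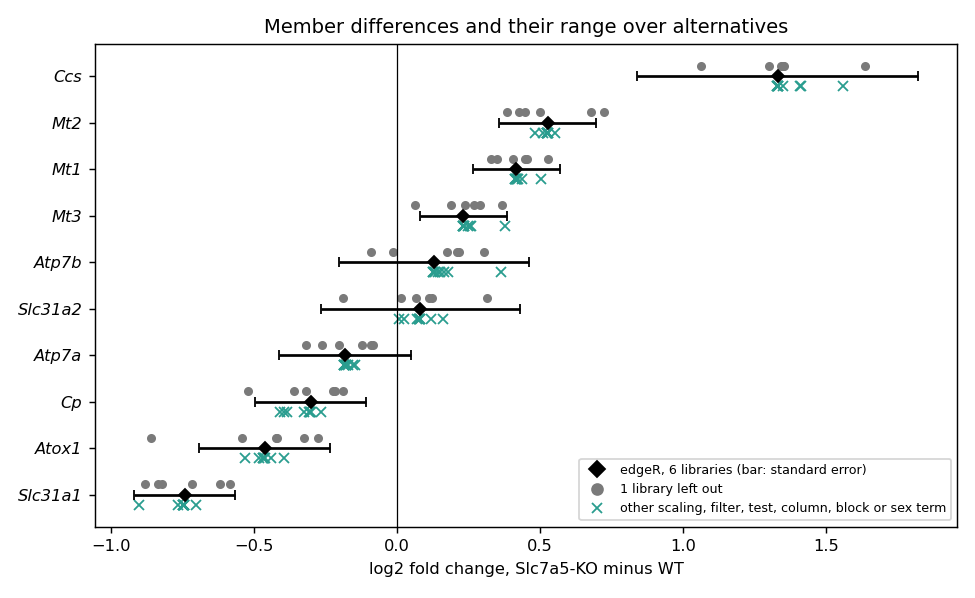
Log2 difference of each gene, Slc7a5-KO minus WT, from edgeR with all 6 libraries (diamond, bar for the standard error), with 1 library left out (grey points) and under other scalings, filters, tests, count columns, a block or a sex term (crosses). Slc31a1 stays between -0.90 and -0.58, Atox1 has a lone grey point at -0.86, and Atp7b and Slc31a2 fall on both sides of 0.

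Genes whose levels followed those of Slc31a1 most closely over the 6 libraries were Zfp229, Ranbp3l and Bbox1. Likeness was the root-mean-square difference between log2 CPM profiles, each centred on its mean, among 11574 genes with a mean of at least 5 CPM. It was 0.12 for Zfp229 and 0.13 for both Ranbp3l and Bbox1, while Slc31a1 itself had an SD of 0.49 over the libraries. For Cp the nearest were Arl4a (0.073), Fam184b (0.088) and Ggps1 (0.090), with an SD of 0.29 for Cp. For Mt1 they were Gpr26 (0.047), Psmd3 (0.049) and Plpp4 (0.0535), and for Mt2 they were Ddx55 (0.076), Xrcc6 (0.081) and Srgap1 (0.092). No member was among the 3 genes nearest to any of these 4, but Ccs, with a mean below 5 CPM, was not compared. Mt3 ranked 173 and Mt2 ranked 3226 in likeness to Mt1, and Cp ranked 194 in likeness to Slc31a1. The rank of a pair depends on which gene is the reference. Taken the other way, Mt1 ranked 701 in likeness to Mt2, and Slc31a1 ranked 2752 in likeness to Cp. Cp and Slc31a1 differed by 0.28, close to the SD of Cp. Picking the nearest of 11574 genes over 6 libraries can give close profiles without any link between the genes. Shared regulation was not tested.

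The rest of the copper pathway held no gene that passed. In 8 lists of copper, zinc, iron and stress genes, 82 of 88 genes were tested. Of these, edgeR called 0 higher and 0 lower at a false discovery rate of 0.05. Over all genes tested it called 0.0475%, so 0 calls among 82 genes is no result about these lists. An unadjusted edgeR p under 0.05 was found for 4 of the 82, and for 6.22% of all genes. DESeq2 and limma-voom also called 0. Over all genes DESeq2 called 0.339% and limma-voom 0.0356%, and limma-voom called 0 of the 10 members. Among 10 reductases and regulators of copper, 9 were below 0 with a median of -0.10. Xiap, a ubiquitin ligase that acts on CCS and the copper regulator COMMD1, stood at 136 ± 23.7 and 106 ± 14.4 CPM (edgeR adjusted p = 0.75). Steap2, a metalloreductase, stood at 201 ± 12.4 and 178 ± 31.7 CPM (edgeR adjusted p = 0.93). The 8 genes that deliver copper inside mitochondria had a median of 0.059, with 5 above 0. Sco1 and Sco2, which help to load copper into cytochrome oxidase, had values of 0.24 ± 0.27 and -0.36 ± 0.36 (edgeR adjusted p = 0.96 for each).

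Of the copper-dependent enzymes 14 of 16 were tested, with a median of -0.16 and 11 below 0. Pam, which amidates neuropeptides, stood at 56.3 ± 2.53 and 66.4 ± 8.77 CPM (edgeR adjusted p = 0.87). Aoc1, a diamine oxidase, was low, with 2.29, 0.650 and 1.050 CPM in WT animals and 0.495, 0.0374 and 0.662 CPM in animals labelled Slc7a5-KO (edgeR adjusted p = 0.88). It was lowest in Slc7a5-KO replicate 2, where the choroid plexus sum was lowest too, and the part of that tissue was not tested.

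Among zinc transporters no gene was called. The ZnT exporters had a median of -0.047 (4 of 8 above 0) and the ZIP importers of 0.016 (8 of 13 above 0). Slc30a7, a zinc exporter of the secretory pathway, had 42.9, 46.0 and 44.7 CPM in WT animals and 39.9, 31.4 and 34.3 CPM in animals labelled Slc7a5-KO, without overlap (edgeR adjusted p = 0.80). Slc30a3, which fills synaptic vesicles with zinc, stood at 15.0 ± 3.73 and 27.1 ± 15.7 CPM (edgeR adjusted p = 0.82), with 43.8 CPM in Slc7a5-KO replicate 2. Slc39a8 and Slc39a2, both importers, had differences of 0.70 ± 0.41 and 0.53 ± 0.41 (edgeR adjusted p = 0.86 and 0.93). Slc30a1, an MTF1 target picked once its values were known, averaged 33.9 and 34.6 CPM (log2 difference 0.032), and Mtf1 itself, picked likewise, 26.9 and 25.3 CPM.

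Iron genes had a median of 0.082 over 9 tested. Tfrc, the transferrin receptor, had 100.4, 89.6 and 85.4 CPM in WT animals and 77.5, 67.9 and 72.9 CPM in animals labelled Slc7a5-KO, without overlap (edgeR adjusted p = 0.74). Ireb2, an iron-sensing regulator of Tfrc mRNA, had a difference of -0.29 ± 0.14 (edgeR adjusted p = 0.81). Lcn2, an acute-phase protein chosen after its values were seen, had 10.95 CPM in replicate 3 labelled Slc7a5-KO and no more than 0.579 CPM in the other libraries.

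Genes that share inducers with Mt1 and Mt2 were not called. The 12 glucocorticoid-induced genes had a median of 0.0021, with 6 above 0. Hif3a stood at 16.9 ± 7.53 and 11.4 ± 0.333 CPM and Errfi1 at 33.5 ± 6.90 and 40.1 ± 4.29 CPM (edgeR adjusted p = 0.82 and 0.90). The 8 targets of the oxidative stress factor NRF2 had a median of 0.080. Hmox1, heme oxygenase 1, had 13.5, 10.7 and 13.2 CPM in WT animals and 15.8, 21.9 and 24.7 CPM in animals labelled Slc7a5-KO, without overlap (log2 difference 0.73 ± 0.23, edgeR adjusted p = 0.55). Nqo1, a quinone reductase, averaged 18.3 ± 1.56 and 13.7 ± 3.02 CPM (edgeR adjusted p = 0.84).

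**Figure D5:**
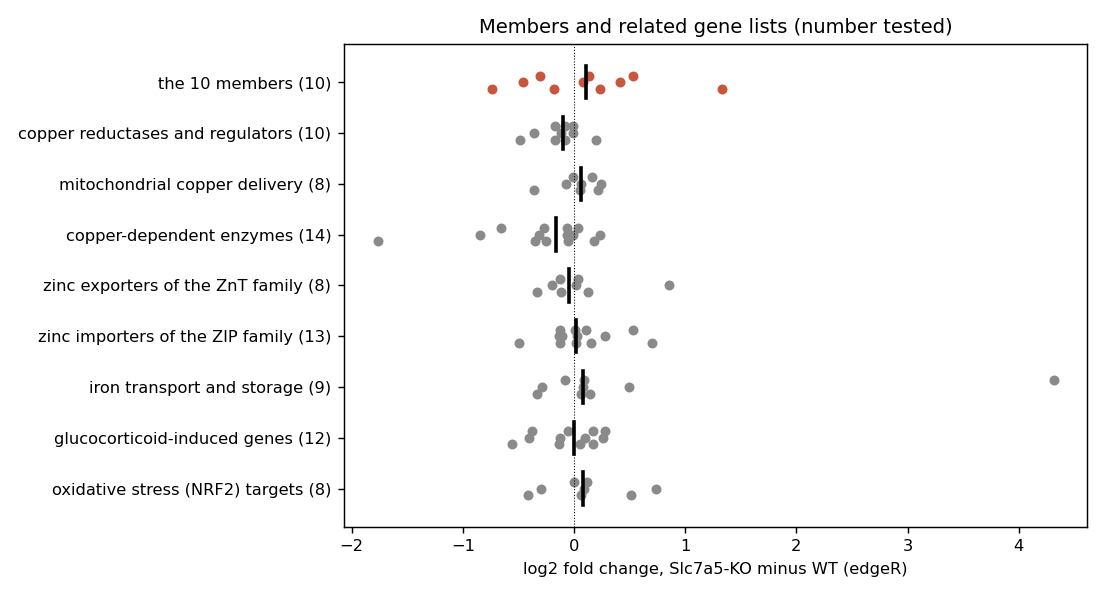
Log2 difference of each tested gene, Slc7a5-KO minus WT, for the 10 members (red) and 8 related gene lists (grey), with the list median as a black bar. Medians lie between -0.16 and 0.11, and the lone grey point at the far right is Lcn2, high in Slc7a5-KO replicate 3.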

How the data were processed

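The deposited values are counts, in 1 table per animal. STAR 2.5.4 and the build GRCm38 (mm10) are named in the submitters' processing notes; the sources used here do not give the annotation behind the counts or say how PCR copies were treated. Reverse-strand counts were used, as they held 94.8% to 95.8% of stranded reads. Reads of no gene or of several genes (19.5% to 22.2%) stayed out, and multimapping reads are listed as 0. The authors' deposited table, per the file headers from DESeq2 (1.10.1 per the submitters' processing notes), gives a mean normalised signal, log2 fold changes, a Wald score and p-values.

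Symbols were found for 46488 of 46983 identifiers, with coordinates and exon lengths from GENCODE M21. After filterByExpr (at least 10 reads in enough libraries and 15 in total) and TMM scaling, edgeR 4.0.16 in R 4.3.3 gave 2-sided quasi-likelihood tests with robust dispersions and Benjamini-Hochberg adjustment over all 16851 genes. Likeness used log2 CPM with a prior count of 2. The sign ± precedes the SD of a level and the standard error of a log2 difference. Alternatives used DESeq2 1.42.0 and limma 3.58.1, among others. The edgeR fit was tested on simulated data. There it called 24% of 1.5-fold, 56% of 2-fold and 92% of 4-fold changes. The simulation changed none of the lowest genes, gave genes of like level the same dispersion, and changed many more genes than were called here. The rates for these data may therefore be lower. A gene that was not called is thus not shown to be unchanged. Limits for 0 reads allow 3 reads and cover counting error only. PCR copies cannot be told apart.

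The members and lists were chosen with earlier results of these data known. The named genes are all members, Slc7a5, from each list the genes past the threshold or else the 2 with the smallest p, and for Slc31a1, Cp, Mt1 and Mt2 the 3 genes of most similar profile, with Ttr, markers at 0 and the highest marker of each list with printed values; others are said to be chosen after their values were seen. A gene that this rule names is not reported here. Marker lists for endothelial cells, fibroblasts, oligodendrocytes, ependyma and red blood cells overlapped between the groups in their sums.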

Additional observations from a re-analysis of the deposited data

How the results depend on the processing

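Alternatives were 2 other scalings, 2 other filters, DESeq2, limma-voom, counts of both strands, a replicate block, each library left out, and a sex term added after seeing the data. The edgeR count of 8 called genes went to 3 to 20 with 1 library left out. It was 3 lacking WT replicate 3, 5 lacking either WT replicate 1 or the third Slc7a5-KO animal, and 20 lacking Slc7a5-KO replicate 1 or 2. It was 46 with DESeq2, 71 without the filter on low counts and 16 with the sex term. Slc31a1 passed under these last 3, and its difference was then -0.75, -0.75 and -0.90. With 1 library left out, Atp7b ran from -0.090 (without WT replicate 2) to 0.30, with -0.013 without Slc7a5-KO replicate 2, and Slc31a2 ran from -0.19 to 0.32. The other 7 genes kept their sign and stayed short of the threshold under all 15 alternatives. The median of the 10 genes ran from -0.014 to 0.23, and the related lists had 0 calls under each alternative. The cause of these shifts was not tested. Replicate numbers are not said to pair the animals. Same-numbered animals had correlations of -0.038, -0.059 and -0.027 in their deviations from the group means, across genes. These values cannot show whether animals were matched, for instance by litter. With the replicate block, edgeR called 6 genes and Slc31a1 had -0.75 (adjusted p = 0.34). Depth limits Ccs, Slc31a2 and Atp7b most, with 26 to 245 reads per library.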
